A study of Mus musculus with 5 samples.

Results

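Maf, Icos, Nrp1, Ikzf2 and Tnfrsf18 are genes of helper and regulatory T cells, and they are described here across T cells sorted from the mouse brain after stroke. They were taken by symbol from the deposited table, where each has 1 row, so they are 5 of its 2926 genes. The table places Maf and Nrp1 on chromosome 8, Icos and Ikzf2 on chromosome 1 and Tnfrsf18 on chromosome 4, without coordinates. All cells came from wildtype C57BL/6 mice given a photothrombotic stroke, a small cortical infarct made by lighting a dye in the blood, and killed on day 14. Trained mice (3 samples) ran on wheels from day 2, and untrained mice (2 samples) did not. Cells positive for CD45 and CD3 were sorted one to a well from the hemisphere of the stroke and sequenced by SORT-seq, a plate method in which each well carries its own barcode. The labels do not say that the samples came from separate animals, so every p-value measures the spread between these samples only.

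CD4 T cells divide into helper cells, which steer other immune cells, and regulatory cells, which restrain them. Maf encodes c-Maf, a basic leucine zipper factor that drives cytokine genes such as those of interleukin 4, interleukin 10 and interleukin 21 in helper cells. Ikzf2 encodes Helios, an Ikaros family zinc finger factor carried by many regulatory T cells and by some CD8 T cells. Icos encodes a costimulatory receptor of the CD28 family that signals through PI3K and sustains follicular helper and regulatory cells. Nrp1 encodes neuropilin-1, a coreceptor for semaphorins and VEGF that in mice marks regulatory T cells of thymic origin. Tnfrsf18 encodes GITR, a TNF receptor family member that is constant on regulatory cells and induced on activated T cells. None of the 5 is restricted to T cells, and macrophages also express Maf and Nrp1.

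The 692 cells comprised 66, 124 and 168 cells of trained samples 1, 2 and 3 and 144 and 190 cells of untrained samples 1 and 2. The deposited values are scores from -2.12 to 3.74 and not counts, with 72.7% of them below 0, so depth is unknown and no fold can be formed. They may have been integrated across samples, and each difference given is one of scores, not of expression. Untrained sample 2 stood apart, since its highest score was 2.52 for each of the 5 genes, a ceiling shared by 9 to 11 cells per gene. In each other sample the highest score of a gene belonged to 1 cell, and the highest of all was 2.04, for Icos in trained sample 3. CD4-gated cells had a Cd4 score above 0 and a mean score of Cd8a and Cd8b1 at or below 0, and CD8-gated cells the reverse. By this gate 146 cells (21.1%) were CD4-gated, 159 (23%) CD8-gated, 57 (8.24%) above both gates and 330 (47.7%) below both. Per sample the CD4-gated cells numbered 16, 38 and 29 in trained and 35 and 28 in untrained mice, and the CD8-gated cells 17, 34 and 40 in trained and 36 and 32 in untrained mice. The gate is a cut on a score and shows no detected transcript, and 34 CD4-gated and 50 CD8-gated cells lay within 0.25 above the cut. Each of the 9 listed T cell markers scored above 0 in 39.0% (Cd5) to 59.6% (Cd3e) of CD4-gated cells and in 23.9% (Cd5) to 68.6% (Thy1) of CD8-gated cells. Across these gate classes 67 cells, 42 of them from untrained sample 2, had a mean score above 0.5 over the 8 measured markers of macrophages, microglia or monocytes. The T cell markers scored above 0 in 5.97% (Cd5 and Cd247) to 34.3% (Cd3e) of these 67 cells and in 25.0% (Cd5) to 53.1% (Thy1) of the other cells.

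Within samples, 4 of the 5 genes scored higher in CD4-gated than in CD8-gated cells everywhere, and Maf differed most in the mean over samples. Nrp1 differed more than Maf in trained sample 1 (0.262 against 0.199), and Icos did so in untrained sample 1 (0.306 against 0.258). Maf, Icos, Nrp1 and Tnfrsf18 were higher in the CD4-gated cells of 5 of 5 samples, a pattern shared by 9.37% of the 2923 genes tested. Ikzf2, the Helios gene, had nearly the same score on both sides of the gate. None of the 5 passed the threshold of an adjusted p under 0.05 over all genes.

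Of the transcription factor genes, Maf scored 0.0368, 0.170 and 0.138 in CD4-gated cells of trained samples 1, 2 and 3, and 0.132 and 0.484 in those of untrained samples 1 and 2. In CD8-gated cells of the same samples it scored -0.162, -0.236, -0.0895, -0.126 and -0.289. The classes did not overlap, and untrained sample 2 held both the highest CD4-gated and the lowest CD8-gated value. The means over samples were 0.192 ± 0.170 and -0.180 ± 0.0812 (SD, n = 5 each). They differed by 0.373 ± 0.078 (SE), with a limma adjusted p of 0.0936. By size this was the third largest positive difference of all genes tested. Maf scored above 0 in 44.0% ± 5.46 of CD4-gated and 15.5% ± 8.76 of CD8-gated cells (SD over samples, n = 5 each). A score above 0 means above the level of the authors' scale only, and does not count transcripts.

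Ikzf2 scored 0.0746, -0.101 and 0.0482 in CD4-gated cells of the trained samples and 0.0218 and -0.103 in those of the untrained samples. Its CD8-gated values were 0.0544, -0.0860 and -0.0886 in trained and -0.0522 and -0.181 in untrained samples. The classes overlapped throughout, and in trained sample 2 the CD8-gated value was the higher one. The difference of 0.059 ± 0.058 (SE, limma adjusted p = 0.699) had a 4 of 5 sample direction, and it became -0.0147 when medians over cells replaced means. Helios thus gave no detectable contrast between the gates, with 26.0% ± 9.80 of CD4-gated and 23.6% ± 11.1 of CD8-gated cells above 0 (SD, n = 5 each).

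Of the receptor genes, Icos had the smallest spread between the sample means of CD8-gated cells (SD 0.0253). It scored 0.0111, 0.142 and -0.0226 in CD4-gated cells of the trained samples and 0.128 and 0.247 in those of the untrained samples. In CD8-gated cells it scored -0.164, -0.209 and -0.178 in trained and -0.178 and -0.139 in untrained samples. No CD4-gated mean lay as low as any CD8-gated mean. The difference was 0.275 ± 0.061 (SE, limma adjusted p = 0.106), with 31.7% ± 11.3 of CD4-gated and 13% ± 4.54 of CD8-gated cells above 0 (SD, n = 5 each).

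Nrp1 scored 0.222, -0.0524 and -0.0318 in CD4-gated cells of trained samples 1, 2 and 3 and 0.0567 and 0.333 in those of untrained samples 1 and 2. In CD8-gated cells the scores were -0.0402, -0.140 and -0.205 in trained and -0.172 and -0.261 in untrained samples. The classes overlapped between samples, because the CD8-gated mean of trained sample 1 lay above the CD4-gated mean of trained sample 2. Within samples the CD4-gated cells were higher each time, by 0.269 ± 0.071 (SE, limma adjusted p = 0.167).

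Tnfrsf18 varied most between samples among CD8-gated cells. It scored 0.147, 0.247 and 0.219 in CD4-gated cells of the trained and 0.0228 and 0.272 in those of the untrained samples. In CD8-gated cells it scored 0.134, 0.119 and 0.0301 in trained and -0.0804 and -0.212 in untrained samples. In trained sample 1 the classes were nearly level, and in untrained sample 2 they were farthest apart. The difference was 0.183 ± 0.070 (SE, limma adjusted p = 0.280), and 42.9% ± 11.5 of CD4-gated and 31.5% ± 17 of CD8-gated cells scored above 0 (SD, n = 5 each).

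**Figure D1:**
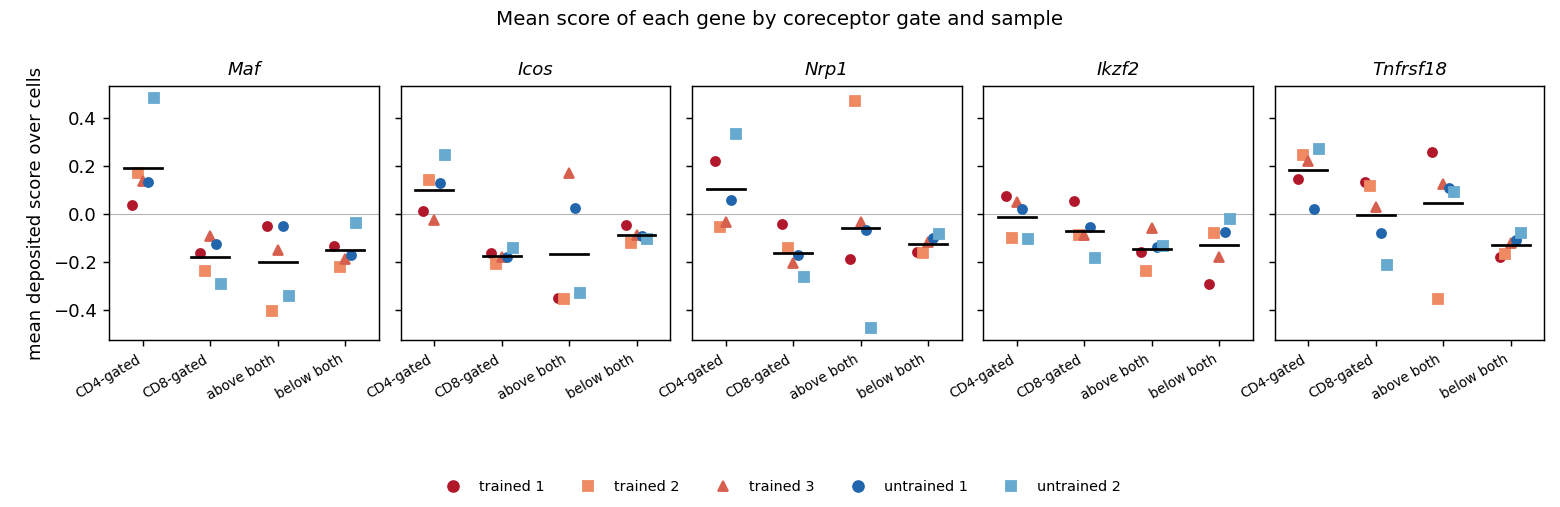
Mean deposited score (vertical axis, score units) of each gene in the 4 gate classes (horizontal axis), 1 point per sample and a bar at the mean of the 5 samples. CD4-gated points of Maf and Icos lie above all their CD8-gated points, with Maf means of 0.192 and -0.180, while the points of Ikzf2 overlap.

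Across all genes 5 of 2923 (0.171%) passed limma with sample as a block in this comparison, 0 of them among the 5 described here, and 13.1% had an unadjusted p under 0.05. Maf, Icos, Nrp1 and Tnfrsf18 were among the latter. The genes past the threshold numbered 0 without trained sample 1, 2 without trained sample 2 or 3, 7 without untrained sample 1 and 4 without untrained sample 2. The median difference of all genes was 0.0270, and 0.00302 without untrained sample 2. Without that sample the differences were 0.273 for Maf, 0.247 for Icos, 0.188 for Nrp1 and 0.108 for Tnfrsf18. With scores divided by the SD of the gene in its sample 53 genes (1.81%) passed, among them Maf (adjusted p = 0.000472), Icos (adjusted p = 0.00794) and Nrp1 (adjusted p = 0.0100) by limma. With the mean of each cell over all genes subtracted, 10 genes passed, 0.342% of all, and of the 5 genes Maf alone did so (limma adjusted p = 0.0365). With medians over cells in place of means the differences were 0.131 for Maf, 0.0781 for Icos, 0.0664 for Nrp1 and 0.0265 for Tnfrsf18, and 0 genes passed. All 8 measured myeloid markers were higher in the CD4-gated cells as well, and the protease gene Ctsb, one of them, was the 1 gene past the threshold that was higher in CD4-gated cells (0.397, limma adjusted p = 0.0430). Their summed mean score per sample ran from -0.877 to 1.45 in CD4-gated and from -3.84 to -0.938 in CD8-gated cells, and the gates held 11 and 5 of the 67 cells of high myeloid score. Without those 67 cells the differences were 0.313 for Maf, 0.296 for Icos, 0.231 for Nrp1, 0.230 for Tnfrsf18 and 0.0649 for Ikzf2, with limma adjusted p from 0.189 to 0.690, and 1 gene passed. Marker lists of dendritic cells, NK cells and oligodendrocytes were read as well. The dendritic cell list had 1 of 10 genes measured (Bst2, 0.151 higher), the NK cell list 1 of 5 (Tyrobp, 0.188 higher) and the oligodendrocyte list 1 of 4 (Mbp, a difference of -0.132). None of these 3 genes passed between the gates, and the part of other cell types in the differences of the 5 genes was not tested. Tyrobp is also 1 of the 8 myeloid markers, and Bst2 was higher by 0.295 in the cells of high myeloid score.

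Against the 330 cells below both gates, CD4-gated cells had higher scores for most genes of the table. Maf was higher by 0.341 ± 0.055 (SE, limma adjusted p = 0.000622) and Tnfrsf18 by 0.311 ± 0.052 (limma adjusted p = 0.000780). Nrp1 was higher by 0.229 ± 0.058 (limma adjusted p = 0.00603) and Icos by 0.190 ± 0.055 (limma adjusted p = 0.0106), and each of the 4 was so in 5 of 5 samples, as were 55.4% of all genes. Ikzf2 differed by 0.117 ± 0.062 (limma adjusted p = 0.118), and without untrained sample 2 by 0.166 (limma adjusted p = 0.0387). These 4 of 5 stand beside 1659 of 2923 genes that passed (56.8% of all, with 53.1% higher) and a median difference of all genes of 0.136, so the count says little about these genes. When the mean over all genes was subtracted from each cell the median of all genes was 0.00213, and 460 genes passed (15.7%). Of these 248 were higher and 212 lower, against 1552 and 107 before. On that scale Maf and Tnfrsf18 still passed, while Icos (0.0567), Nrp1 (0.0955) and Ikzf2 (-0.0170) did not.

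Cells above both gates numbered 8, 2 and 20 in trained and 21 and 6 in untrained samples, too few per sample for firm means. Their mean scores over samples were -0.198 ± 0.165 for Maf, -0.168 ± 0.247 for Icos, -0.0575 ± 0.343 for Nrp1, -0.145 ± 0.0632 for Ikzf2 and 0.0464 ± 0.232 for Tnfrsf18 (SD, n = 5 each). Each spread was wider than the gap to the CD8-gated mean, except for Ikzf2, whose gap was also small.

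Maf and Nrp1 had higher mean scores in the 67 cells of high myeloid marker score than in any coreceptor gate class, and the other genes did not. Single cells did not always follow, since the top Maf cell of trained samples 2 and 3 and untrained sample 1 and the top Nrp1 cell of untrained sample 1 were not of this class. This comparison was added after the data were seen, and the markers that define the cells are Cst3, Ctss, Ctsd, Ctsb, C1qb, Tyrobp, Fcer1g and Apoe. Such a class is a range of a score, with 38 cells within 0.25 below the cut and 9 within 0.25 above it. Its cells numbered 5, 6 and 7 in trained samples 1, 2 and 3 and 7 and 42 in untrained samples 1 and 2, and 48 of them lay below both coreceptor gates.

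Maf scored 0.708, 0.226 and 0.195 in the cells of high myeloid score of the trained samples and 0.187 and 0.882 in those of the untrained samples. The means over samples were 0.439 ± 0.331 in these cells and -0.148 ± 0.0705 in all other cells (SD, n = 5 each). They differed by 0.587 ± 0.116 (SE, higher in 5 of 5 samples), with a limma adjusted p of 0.00551. Nrp1 scored 0.679, 0.371 and 0.241 in these cells of trained samples and 0.240 and 0.683 in those of untrained samples. Its means were 0.443 ± 0.224 in the cells of high myeloid score and -0.146 ± 0.0749 in the others (SD, n = 5 each). They differed by 0.588 ± 0.088 (SE, higher in 5 of 5 samples), with a limma adjusted p of 0.00144. Trained sample 1 and untrained sample 2 gave the largest gaps for both genes, and the lowest mean of the cells of high myeloid score lay above the highest mean of the others. Of all genes 22.2% were higher in 5 of 5 samples.

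Icos pointed the other way in 5 of 5 samples, as did 7.98% of all genes, at -0.182 ± 0.0573 in the cells of high myeloid score and -0.0578 ± 0.0187 in the others (SD, n = 5 each). Its difference of -0.124 ± 0.054 did not pass (limma adjusted p = 0.126), although its unadjusted p was under 0.05, as for 35% of all genes. Tnfrsf18 differed by -0.0945 ± 0.068 (limma adjusted p = 0.339) and Ikzf2 by -0.0153 ± 0.077 (limma adjusted p = 0.908). Of 2918 genes tested 584 passed (20%, with 15.6% higher), beside 2 of these 5. That count was 252 without trained sample 1 and 365 without untrained sample 2, and in both cases Maf and Nrp1 passed.

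**Figure D2:**
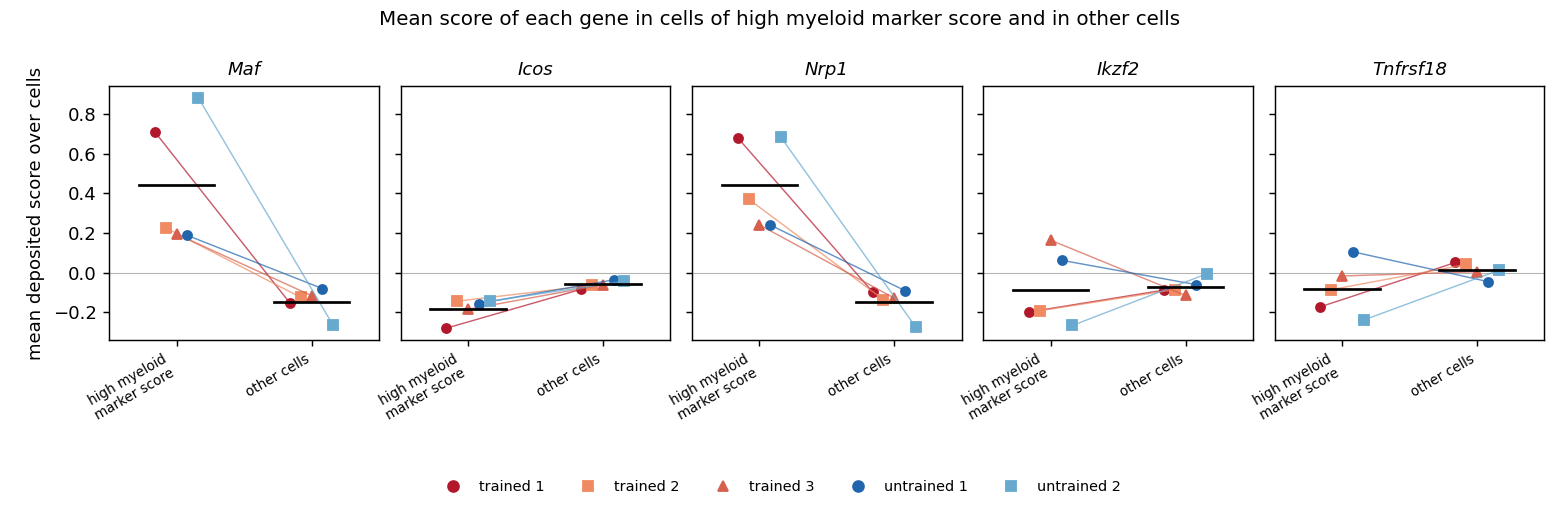
Mean deposited score (vertical axis, score units) of each gene in cells of high myeloid marker score and in all other cells of the same sample, joined by a line per sample, with a bar at the mean of the 5 samples. Lines of Maf and Nrp1 slope down from means of 0.439 and 0.443 in all 5 samples, and those of Icos slope up.

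Few cells scored above 0 for all 5 genes. Of the 692 cells, 274 scored above 0 for none of them, 194 for 1, 120 for 2, 65 for 3, 34 for 4 and 5 for all 5. At least 3 of the genes were above 0 in 104 cells (15.0%, 95% Wilson interval 12.6 to 17.9). The counts that 5 unrelated genes would give were not worked out, so overlap above or below that level is not shown here. The 104 cells were 44 of 146 CD4-gated cells (30.1%, interval 23.3 to 38.0), 16 of 159 CD8-gated cells (10.1%, interval 6.29 to 15.7), 12 of 57 cells above both gates (21.1%) and 32 of 330 below both (9.70%). The intervals cover counting error within these pooled cells and not the spread between samples. Such shares were not worked out for other genes. Of all genes 61.5% had a higher mean score in CD4-gated than in CD8-gated cells, and 90.7% than in cells below both gates. The higher share in CD4-gated cells is therefore not shown to be particular to the 5 genes. Of the 5 cells with all 5 genes above 0, 4 were CD4-gated. By sample, the CD4-gated cells with at least 3 genes numbered 4 of 16, 12 of 38 and 7 of 29 in trained and 16 of 35 and 5 of 28 in untrained mice. The share was higher in CD4-gated than in CD8-gated cells of each sample, narrowly so in trained sample 1, where 4 of 17 CD8-gated cells qualified.

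**Figure D3:**
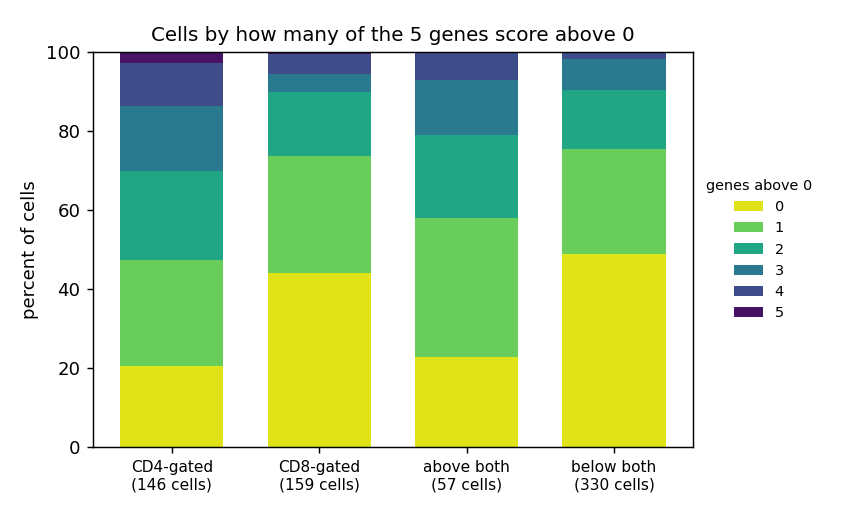
Percent of cells (vertical axis) by how many of the 5 genes score above 0 (colours), in each gate class pooled over the 5 samples. In CD4-gated cells 20.5% have none above 0, against 44.0% of CD8-gated cells.

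Pairs of the genes were then followed from cell to cell within each sample. The correlations are descriptions, since cells of a sample share a library and a depth that is unknown, and all of them were weak. Pearson r, averaged over the 5 samples, was highest for Maf with Nrp1 (0.248), Ikzf2 with Tnfrsf18 (0.218) and Maf with Icos (0.217). The median over all 4279275 gene pairs was 0.0925, and 95% of pairs lay below 0.239, so only the pair of Maf and Nrp1 exceeded that level. The lowest pair was Icos with Ikzf2, at 0.0101.

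Leaving out the 67 cells of high myeloid score reordered the pairs. Maf with Nrp1 dropped to 0.138, with 67.7% of all gene pairs below it. The values of this pair ran from -0.0569 in trained sample 2 to 0.362 in untrained sample 1. Maf with Icos was then the strongest pair at 0.288, with 97.3% of all gene pairs below it. Its r was 0.289, 0.420 and 0.247 in trained and 0.177 and 0.305 in untrained samples, above 0 in each. With the mean of each cell over all genes also subtracted, Maf with Icos was at 0.261 (99.3% of pairs below), and each was the other's first neighbour among all genes. Maf with Nrp1 was then at 0.0981 (92.0% of pairs below), from -0.122 in trained sample 2 to 0.299 in untrained sample 1. Among the cells with Maf above 0, 51 of 123 also had Icos above 0 (41.5%), against 79 of the 502 cells without Maf above 0 (15.7%). These shares pool the cells of all samples, so the contrast is not one within samples. Of the cells left, Maf and Icos were above 0 in 9.46% and 10.1% in untrained sample 2, and in 27.7% and 29.2% in untrained sample 1.

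The next highest pairs without the cells of high myeloid score joined Nrp1, Ikzf2 and Tnfrsf18, a grouping made after the values were seen. Nrp1 with Tnfrsf18 was at 0.244 (94.2% of all gene pairs below), Ikzf2 with Tnfrsf18 at 0.219 (90.8%) and Nrp1 with Ikzf2 at 0.183 (83.1%), all short of the 0.252 under which 95% of pairs lay. Nrp1 with Ikzf2 varied least between samples, from 0.136 to 0.222. Ikzf2 with Tnfrsf18 varied most, from 0.0340 in trained sample 1 to 0.414 in untrained sample 2. Within CD4-gated cells of low myeloid score the same 3 pairs stood at 0.365, 0.209 and 0.328, and Ikzf2 with Tnfrsf18 was -0.290 in trained sample 1. Maf with Icos was at 0.187 there, with -0.0576 in trained sample 1 and -0.0301 in untrained sample 1. With cell means subtracted the 3 pairs were at 0.150, 0.0816 and 0.129 over all cells of low myeloid score. Ikzf2 with Tnfrsf18 was below 0 in trained sample 1 and untrained sample 1. The level of all gene pairs fell on that scale too, to a median of -0.00165 with 95% of pairs below 0.119. Nrp1 with Tnfrsf18 (97.4% of pairs below) and Nrp1 with Ikzf2 (96.0%) exceeded 0.119, and Ikzf2 with Tnfrsf18 (88.4%) did not. Icos with Nrp1 (0.120, 95.1% below) and Maf with Nrp1 (0.0981) stood above Ikzf2 with Tnfrsf18, so the 3 pairs were not the next highest there. Of the cells with Ikzf2 above 0, 70 of 134 also had Tnfrsf18 above 0 (52.2%), against 108 of the 491 without Ikzf2 above 0 (22.0%). These shares also pool the samples, over which the share above 0 ran from 14.8% to 27.7% for Ikzf2 and from 12.8% to 42.6% for Tnfrsf18.

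**Figure D4:**
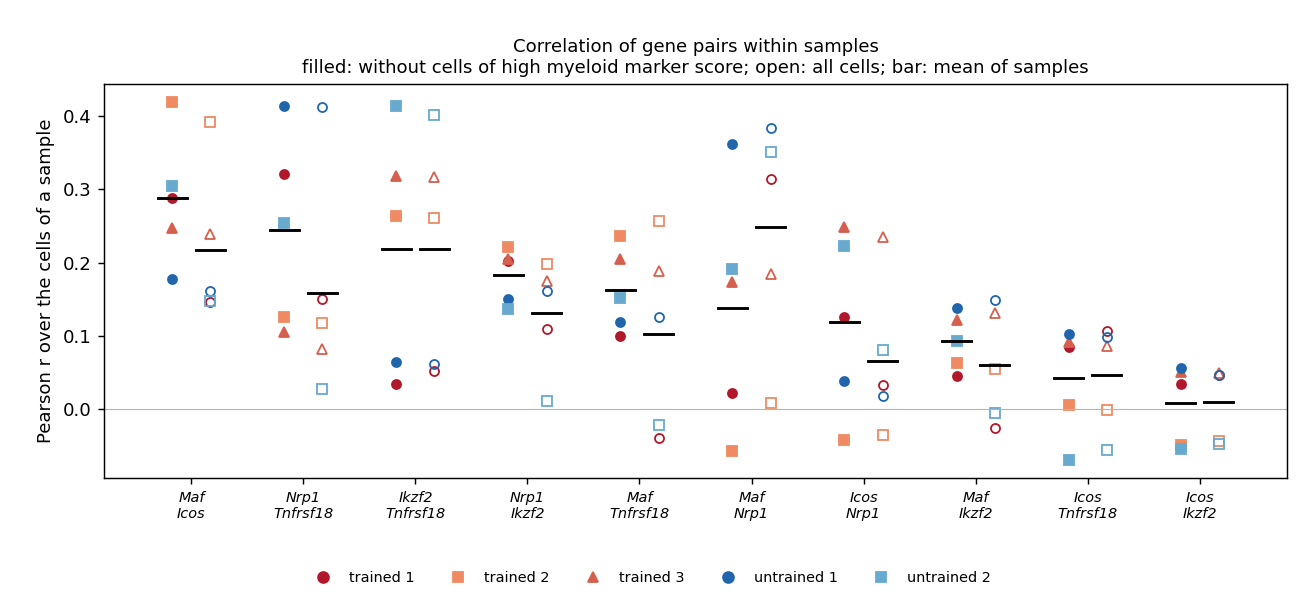
Pearson r between 2 genes over the cells of a sample (vertical axis) for each of the 10 gene pairs (horizontal axis), 1 point per sample, with cells of high myeloid marker score left out (filled) and with all cells (open), and a bar at the mean of the 5 samples. The mean of Maf with Icos is 0.288 without those cells and 0.217 with them, and that of Maf with Nrp1 is 0.138 without and 0.248 with them.

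The promoters of Nrp1 and Tnfrsf18, the pair with the second highest correlation in the cells left, are shown because these genes had entries in the RefSeq table used here. The 250 bases before the start of each gene lie on the plus strand of mouse build GRCm38.p6 at chr8:128358823-128359072 for Nrp1 and at chr4:156026072-156026321 for Tnfrsf18. Capitals mark GGGAA and its reverse complement TTCCC, the core letters of an NF-kB site, searched on both strands, because TNF receptor family members signal to NF-kB.
Nrp1: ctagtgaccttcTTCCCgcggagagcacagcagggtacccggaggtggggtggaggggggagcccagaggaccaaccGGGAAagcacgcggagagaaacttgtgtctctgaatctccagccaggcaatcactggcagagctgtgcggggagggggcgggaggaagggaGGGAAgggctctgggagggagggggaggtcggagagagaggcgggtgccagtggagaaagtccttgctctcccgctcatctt
Tnfrsf18: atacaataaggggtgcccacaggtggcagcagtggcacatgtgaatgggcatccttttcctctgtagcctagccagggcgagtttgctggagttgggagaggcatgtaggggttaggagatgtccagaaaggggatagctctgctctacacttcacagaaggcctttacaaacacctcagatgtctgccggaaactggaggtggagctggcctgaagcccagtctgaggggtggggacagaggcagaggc
The Nrp1 window is 64.4% G or C and holds 2 forward and 1 reverse match, and the Tnfrsf18 window is 56.0% G or C and holds 0. Of 32851 mouse promoters of this length 56.2% held at least 1 match and 5.88% held 3 or more. The core of a Maf half-site, TGCTGA on either strand, was in neither window and in 16.1% of all promoters. A match is letters in a window and shows no binding.

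The genes that followed each of the 5 most closely over all cells of a sample differed from gene to gene. For Maf they were the lysosomal protease gene Ctsd (mean r 0.411), Serinc3, the early response gene Egr1, Itm2b and the myeloid adaptor gene Tyrobp. For Nrp1 they were the lysosomal membrane gene Lamp1 (0.345), the complement gene C1qb (0.345), the G protein regulator gene Rgs2, Slc25a45 and Itm2b. Ctsd, Tyrobp and C1qb belong to the markers that define the cells of high myeloid score. For Icos they were Maf (0.217), Clcn4-2, Arhgap4, the kinase gene Stk4 and Cd4 (0.191).

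Ikzf2 was followed by the chemokine gene Xcl1 (0.339), the T and NK cell surface gene Cd7 (0.327) and the ribosomal genes Rplp0, Rps10 and Rps7. Xcl1 itself was lower in CD4-gated than in CD8-gated cells, by 0.340 ± 0.076 without passing (limma adjusted p = 0.106, lower in 5 of 5 samples). Tnfrsf18 was followed by the actin genes Actb (0.393) and Actg1, the thymosin genes Tmsb4x and Tmsb10 and the elongation factor gene Eef1a1, all of them abundant in most cells. With the cells of high myeloid score left out and cell means subtracted, the first neighbours were Icos for Maf (0.261), Maf for Icos, Slc25a45 for Nrp1 (0.279), Xcl1 for Ikzf2 (0.251) and Actg1 for Tnfrsf18 (0.233). The second for Tnfrsf18 was then Nfkbia (0.223), which encodes the NF-kB inhibitor.

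Training gave no detectable difference in any of the 5 genes. Over all sorted cells Tnfrsf18 scored 0.0341, 0.0351 and 0.00373 in trained samples 1, 2 and 3 and -0.0378 and -0.0439 in untrained samples 1 and 2. The groups did not overlap, with means of 0.0243 ± 0.0178 (SD, n = 3) for trained and -0.0408 ± 0.00432 (SD, n = 2) for untrained samples. They differed by 0.0651 ± 0.022 (SE), with a limma adjusted p of 0.518. Maf scored -0.0883, -0.108 and -0.103 in trained and -0.0674 and -0.0116 in untrained samples, a difference of -0.0602 ± 0.024 (limma adjusted p = 0.563). Icos differed by -0.0238, Nrp1 by -0.0187 and Ikzf2 by -0.0380, with limma adjusted p from 0.708 to 0.864. The groups did not overlap for 4 of the 5 genes, all but Nrp1, as for 25.1% of all genes. By limma 0 of 2926 genes (0%) passed, and 7.72% had an unadjusted p under 0.05, Maf and Tnfrsf18 among them. Without untrained sample 1, 3 genes passed, none of the 5 among them.

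The cells of high myeloid score were 5 of 66, 6 of 124 and 7 of 168 cells in trained samples. In untrained samples they were 7 of 144 and 42 of 190 cells, so untrained sample 2 alone stood apart. Without the cells of high myeloid score the training differences of Maf and Nrp1 were 0.0414 and 0.0622, of the opposite sign. That of Tnfrsf18 was 0.0491, of the same sign. The 8 myeloid markers were all lower in trained samples, with a median difference of -0.110. In means over all sorted cells, fewer cells of a kind and a lower score per cell cannot be told apart.

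In CD4-gated cells the trained means were 0.115 ± 0.0695 for Maf, 0.0436 ± 0.0871 for Icos and 0.0460 ± 0.153 for Nrp1 (SD, n = 3), against 0.308 ± 0.249, 0.188 ± 0.0842 and 0.195 ± 0.195 in untrained samples (SD, n = 2). The differences of -0.193 for Maf, -0.144 for Icos and -0.149 for Nrp1 each had a limma adjusted p of 0.999. Untrained sample 2 alone held the highest value for all 3 genes. Without it the differences of Maf and Nrp1 were -0.0173 and -0.0107, and that of Icos was -0.0845. Without untrained sample 1 they were -0.369 for Maf, -0.287 for Nrp1 and -0.204 for Icos, with limma adjusted p from 0.106 to 0.335, and that of Tnfrsf18 was -0.0676. Tnfrsf18 had 0.204 ± 0.0514 in trained and 0.147 ± 0.176 in untrained samples, and Ikzf2 0.00736 ± 0.0945 in trained and -0.0406 ± 0.0883 in untrained samples (SD, n = 3 and 2). By limma 0 of 2923 genes (0%) passed in CD4-gated cells, and 2.43% had an unadjusted p under 0.05, none of the 5 among them. Groups did not overlap for 14.5% of all genes and for none of the 5. In CD4-gated cells 37.1% of all genes were higher in trained samples, and the median difference of all genes was -0.0280.

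In CD8-gated cells Tnfrsf18 scored 0.134, 0.119 and 0.0301 in trained and -0.0804 and -0.212 in untrained samples. The groups did not overlap, as for 25.1% of all genes, and the difference was 0.240 ± 0.078 (SE, limma adjusted p = 0.5, rank 28 of 2923 by p). It was 0.113 with the gate cut at 0.25, 0.174 without untrained sample 2 and 0.306 without untrained sample 1. The other 4 genes differed by -0.0249 to 0.0878 (limma adjusted p from 0.757 to 0.936), and 0 of 2923 genes (0%) passed, with 9% at an unadjusted p under 0.05. In CD8-gated cells 70.7% of all genes were higher in trained samples, and the median difference of all genes was 0.0458. The training difference itself was compared between the gates by limma on within-sample differences. In CD4-gated minus CD8-gated cells it was -0.238 for Maf, for Nrp1 -0.237, for Tnfrsf18 -0.184, for Icos -0.119 and for Ikzf2 -0.0287, with limma adjusted p from 0.765 to 0.970. By limma 0 genes (0%) passed here, 5.92% had an unadjusted p under 0.05, none of the 5 among them, and the median of all genes was -0.0778. Without untrained sample 1, 10 genes passed, and without untrained sample 2 the values for Maf and Tnfrsf18 were 0.0187 and 0.00686.

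The share of CD4-gated cells with at least 3 of the 5 genes above 0 averaged 26.9% ± 4.07 over the trained samples (SD, n = 3) and 31.8% ± 19.7 over the untrained ones (SD, n = 2). The gap of -4.88 percentage points lay within the spread of the untrained samples, with an exact permutation p of 0.8, two-sided over 10 splits that allow none below 0.1. It was 9.05 without untrained sample 1 and -18.8 without untrained sample 2.

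**Figure D5:**
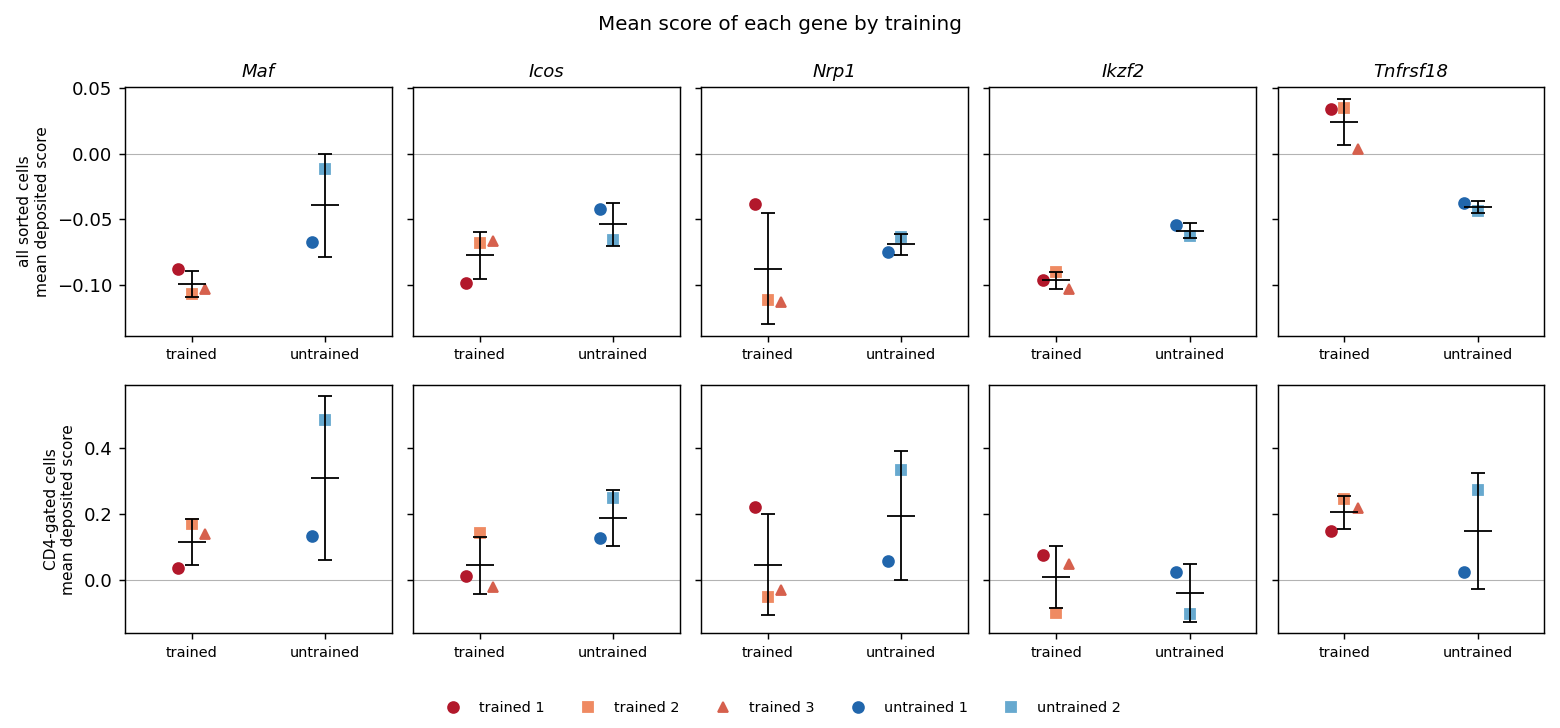
Mean deposited score (vertical axis, score units) of each gene in trained and untrained samples over all sorted cells (top) and CD4-gated cells (bottom), 1 point per sample, with the mean and SD of each group. In CD4-gated cells untrained sample 2 has the highest Maf value, 0.484, and untrained sample 1, at 0.132, lies among the trained samples.

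Other genes of the pathways of these 5 were read from lists chosen with earlier results of these data known. In CD4-gated against CD8-gated cells 0 genes of any pathway list passed limma over all genes, beside 0.171% of all genes. Of all genes 61.5% were higher in CD4-gated cells, so counts of higher genes near that share say little about a list. Of the regulatory T cell list only Capg, Il2rb and Traf1 of 33 genes were measured, and Foxp3, the lineage factor, was not analysed here. Il2rb, the shared beta chain of the interleukin 2 and 15 receptors, had a mean score of 0.112 in CD4-gated and 0.297 in CD8-gated cells and so differed by -0.184 ± 0.069 (limma adjusted p = 0.280). Capg, an actin capping protein gene, differed by 0.178 ± 0.071 (limma adjusted p = 0.298).

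Partners of Maf were represented by 4 of 17 listed genes, all 4 higher in CD4-gated cells, with a median difference of 0.179 beside 0.0270 for all genes. Junb, an AP-1 subunit gene, differed by 0.304 ± 0.081 (limma adjusted p = 0.167) and Jund by 0.271 ± 0.083 (limma adjusted p = 0.219). All 4 genes were also higher in the cells of high myeloid score, with a median difference of 0.619 and, for Fos, 0.726 (limma adjusted p = 0.00271), and CD4-gated cells held 11 of those cells against 5 among CD8-gated cells. For Icos, 11 of 19 genes of the CD28 family and PI3K list were measured and 10 were higher, with a median of 0.0757. Cd28, the founding costimulatory receptor, differed by 0.126 ± 0.063 and was higher in 5 of 5 samples (limma adjusted p = 0.407).

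For Tnfrsf18, 9 of 27 genes of the TNF receptor and NF-kB list were measured, 6 higher and 3 lower, and their median was 0.120. Nfkbia differed by 0.245 ± 0.070 (limma adjusted p = 0.184, higher in 5 of 5 samples) and Tnfrsf1b, which encodes TNF receptor 2, by 0.186 ± 0.070 (limma adjusted p = 0.280). Both were higher in the cells of high myeloid score, Nfkbia by 0.487 (limma adjusted p = 0.00213) and Tnfrsf1b by 0.367 (limma adjusted p = 0.0200). The part of those cells in the gate differences of these lists was not tested. For Ikzf2, 13 of 18 genes of Ikaros factors and NuRD partners were measured, 7 higher and 6 lower, and their median was 0.00187. Its relative Ikzf3, the Aiolos gene, differed by -0.143 ± 0.062 (limma adjusted p = 0.334). For Nrp1, 6 of 22 genes of the semaphorin and TGF-beta list were measured, 4 higher and 2 lower, their median being 0.0389, and the semaphorin gene Sema4a differed by -0.284 ± 0.071 and was lower in 5 of 5 samples (limma adjusted p = 0.131). Of the helper list 15 of 30 were measured, 10 higher and 5 lower, and its median was 0.0674. Cd44, the hyaluronan receptor gene of activated T cells, differed by 0.266 ± 0.063 (limma adjusted p = 0.131, higher in 5 of 5 samples). Cxcr6, a chemokine receptor gene of tissue T cells, differed by -0.246 ± 0.068 (limma adjusted p = 0.178, lower in 5 of 5 samples). With training, 0 genes of these 7 lists passed in all sorted, CD4-gated or CD8-gated cells.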

How the data were processed

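CD3+ T cells of 3 trained and 2 untrained samples were profiled by SORT-seq. Per the submitters' processing notes Cell Ranger was used, and its version, the genome build and any normalisation or integration step are not stated there. The values deposited by the authors under the name of a count matrix are scores, made by steps no label records, so no count test was run and depth stays unknown. Cells were assigned to samples by the number in their names, per the labels, and 0 columns were unmatched. Wells hold 1 sorted cell each and no doublet caller was run. The samples share 221 of 331 well names, with 0 cells of identical values.

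Mean scores per sample and class were fitted with limma (3.58.1, R 4.3.3), sample as a block between classes and training as the term otherwise. Benjamini-Hochberg adjusted p-values were taken across the whole table and called below 0.05. Spike-ins (41) were left out, as were Cd4, Cd8a and Cd8b1 in gate fits and the 8 myeloid markers in the fit on myeloid score. The fits of CD4-gated minus CD8-gated cells and of training over all sorted cells were tested on simulated data, drawn without sample effects. The remaining fits were not tested in this way. The genes, lists and tests were chosen with earlier results of these data known. Named genes were the 5 genes, the 5 closest neighbours of each by mean r, up to 3 per list by p, and markers. Promoters came from RefSeq (2 of 5 genes matched). Alternatives changed the gate, scale, summary, cells, genes, weights, block or samples.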

Additional observations from a re-analysis of the deposited data

How the results depend on the processing

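Untrained sample 2, with its ceiling of 2.52 and 42 of the 67 cells of high myeloid score, and an unknown depth limit every training comparison. That sample also held the largest difference between CD4-gated and CD8-gated cells for Maf, Icos, Nrp1 and Tnfrsf18. No paired analysis was possible because replicate numbers of trained and untrained samples carry no pairing. The gate cut at 0.25 does not enter the pair correlations over all cells and gave no value there. Where a direction or call changed, the cause was not tested. The values follow, with adjusted p from limma.

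CD4-gated minus CD8-gated cells had 53 genes past the threshold with scores divided by the SD of the gene, 0 with medians over cells, 10 with cell means subtracted and 1 without the cells of high myeloid score. Maf was then 0.63, Icos 0.52 and Nrp1 0.50 on the SD scale, Maf 0.347 with cell means subtracted and Ikzf2 -0.0147 by medians, which also put Maf at 0.131, Icos at 0.0781, Nrp1 at 0.0664 and Tnfrsf18 at 0.0265. Without the sample as a block 30 genes passed, with Maf at 0.373 (adjusted p = 0.0194) and Icos at 0.275 (adjusted p = 0.0320). Leaving out 1 sample at a time gave 0 to 7 genes.

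Against cells below both gates, Ikzf2 passed on the SD scale at 0.268 (adjusted p = 0.0287). By medians 411 genes passed and Icos (0.0478), Nrp1 (0.0682) and Tnfrsf18 (0.145) did not. With cell means subtracted 460 passed, with Icos at 0.0567, Nrp1 at 0.0955 and Ikzf2 at -0.0170. Leaving out 1 sample gave 0.0548 to 0.166 for Ikzf2.

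In cells of high myeloid score, medians gave 99 genes, Maf at 0.650 (adjusted p = 0.0828) and Ikzf2 at 0.0998. Ikzf2 was 0.0130 on the SD scale and Icos -0.193 with cell means subtracted (adjusted p = 0.0308). Weighting by cells gave 1238 genes, and no replicate block put Icos at -0.124 past the threshold (adjusted p = 0.0418). Leaving out 1 sample gave 252 to 532 genes and -0.0888 to 0.0462 for Ikzf2.

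For training over all cells, medians gave Maf 0.0573, Nrp1 0.0636 and Ikzf2 0.00532, and leaving out the cells of high myeloid score gave Maf 0.0414 and Nrp1 0.0622. Leaving out 1 sample gave 0 to 3 genes. In CD4-gated cells, medians gave 1 gene, Maf 0.0727, Icos 0.00729 and Nrp1 0.0789, and leaving out 1 sample gave -0.0676 to 0.181 for Tnfrsf18 and -0.0144 to 0.110 for Ikzf2. In CD8-gated cells the gate at 0.25 gave 1 gene and medians gave 12. Maf was -0.0592 at that gate, -0.00313 on the SD scale, -0.000112 with cell means subtracted and -0.0360 to 0.127 with 1 sample left out. For the difference of the training effect between gates, Ikzf2 was 0.0237 at the gate of 0.25 and 0.0480 with cell means subtracted, while medians gave Icos 0.0164 and Tnfrsf18 0.00186. Leaving out 1 sample gave 0 to 10 genes, -0.495 to 0.0187 for Maf, -0.374 to 0.00686 for Tnfrsf18 and -0.0735 to 0.00235 for Ikzf2. The share of CD4-gated cells with at least 3 genes above 0 differed by -18.8 to 9.05 percentage points with 1 sample left out.

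The median correlation over the 10 gene pairs was 0.116, and 0.150 without the cells of high myeloid score, 0.0647 with cell means subtracted and 0.0899 with both. Counted over results and settings, 202 values with 1 sample left out and 256 under other settings kept their direction and their side of the threshold, or, for counts of genes and correlations, stayed within 1.5 times the count or 1 SD over samples. With 1 sample left out, 10 reversed, 7 moved further and 1 came to pass, and under other settings 19 reversed, 12 moved further, 9 came to pass and 6 no longer passed. Some of the 256 values could not change. Dividing by the SD of the gene leaves each score on its side of 0 and leaves Pearson r as it was. The share thus stayed at -4.88 percentage points and the median correlation at 0.116. Leaving out the 732 genes of lowest SD removed none of the 5 genes, so their differences could not change and only their p-values could. Such values do not test the direction.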
